A study of Arabidopsis thaliana with 11 samples.

Results

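Photosynthesis genes of the nucleus were examined in wild-type torpedo-stage embryos of 7 Arabidopsis accessions. The genes are RCA, LHCB4.1, LHCB4.2, LHCB4.3, PSAE-1, PSAN, PSBW, PSBY and PSB27. They are the 9 probe sets, of 13513 to which the platform annotation gives 1 gene, whose symbol is RCA or starts with LHCA, LHCB, PSA or PSB. A further 20 probe sets for psa and psb genes of the plastid genome were left out. Each of the 9 genes has 1 probe set, none of a type named for cross-hybridisation, and all were tested among 22746 probe sets. Other photosystem genes were not analysed here.

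The study asked which accessions need ZLL (AGO10), an Argonaute protein of the embryo, to keep the stem cells of the shoot. Its 11 ATH1 arrays hold 3 of Col-0, 1 of Ts-1 and 1 of Van-0, whose shoot meristems do not depend on ZLL, and 3 of Fe-1 with 1 each of Ler-0, Nw-0 and Bay-0, which do. All plants were wild type, and each array was made from total RNA of whole embryos dissected from maturing seeds and pooled. The Col-0 and Fe-1 arrays are named biological replicates. Labels disagree for a pair of arrays, since Ler-1 stands for Ler-0 in the source name and design text and Tossa del Mar-0 for Ts-1 among the characteristics, and the titles were followed.

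Plant embryos of this species turn green in the middle of their development, while the seed coat still lets light through, and lose most of their chlorophyll again as the seed dries. Light is caught by antenna proteins that pass its energy to photosystem II, which splits water, and to photosystem I, which reduces ferredoxin. The plastid genome encodes the reaction centres, whereas the nucleus encodes the antenna and many small subunits, so both genomes must be expressed to build a photosystem. LHCB4 (CP29) is a minor antenna protein that links the outer antenna to the core of photosystem II, and Arabidopsis has several gene copies of it.

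Values are deposited log2 signals after RMA normalisation, and a difference of 1 on this scale is a doubling. Signals of different probe sets were not set against each other as transcript levels, since probes differ in how well they bind. All 9 genes gave strong signals: on every array each was above at least 90.8% of the probe sets. LHCB4.1 and PSAN were above the 99th percentile (12.90 to 12.97 on the log2 scale) on all 11 arrays. A gene was called changed at a Benjamini-Hochberg adjusted p under 0.05 in limma over all 22746 probe sets, with no fold limit. For the 5 accessions with 1 array the fit takes the spread from the Col-0 and Fe-1 replicates. Because whole embryos were measured, fewer cells of a type and less RNA per cell cannot be told apart.

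Over all probe sets, correlations were 0.996 to 0.997 within an accession and 0.978 to 0.988 between accessions. Seed tissues around the embryo were looked for with marker lists. Of 34 seed coat names, 2 were measured. BAN, which encodes anthocyanidin reductase of the inner seed coat, had log2 signals of 8.77 and 7.40 in Fe-1 replicates 2 and 3 and 7.61 in Van-0, and 4.67 to 5.95 on the other 8 arrays. The summed signal of BAN and DFR, a gene of flavonoid synthesis, was 6.17 to 7.06 on the log2 scale in Col-0, 6.50 to 10.18 in Fe-1, 8.52 in Van-0, 8.17 in Ler-0 and 6.03 to 6.82 in Bay-0, Nw-0 and Ts-1. Of 22 endosperm names, 8 probe sets were measured. Those of AGL62 and IKU2 stayed under a log2 signal of 4, below the lower quartile of every array (4.92 to 5.04), and the other 6 lay above it, with AGL28 at 5.74 to 6.62, AGL80 at 6.43 to 7.45, IKU1 at 6.31 to 7.05 and the 3 probe sets of DME at 6.28 to 9.82. Between Fe-1 and Col-0, 1 of the 8 was called, where 29.3% of all probe sets were called in either direction. It was a DME probe set (0.34 higher in Fe-1, adjusted p = 0.0211 in limma), while the other DME probe sets lay at 0.13 and -0.27 and were not called. The part of endosperm RNA in the values of the photosynthesis genes was not tested. OLEO3, an oil body protein gene of maturing embryos, was high on all arrays (12.91 to 13.20), and CLV3, a marker of shoot stem cells, had low signals of 4.73 to 6.12.

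LHCB4.2 varied most of the 9 genes. Its log2 signal was 12.60, 12.66 and 12.80 in the Col-0 arrays and 12.08, 12.14 and 12.19 in the Fe-1 arrays. It was 12.34 in Bay-0, 12.30 in Ler-0, 12.25 in Van-0, 11.87 in Ts-1 and 11.30 in Nw-0. All 3 Col-0 arrays lay above the other 8 arrays, as did those of 3.78% of all probe sets, and LHCB4.2 was the only 1 of the 9 genes with this order. Its accession means spanned 1.38 on the log2 scale, or 2.61-fold, a wider span than that of 91.1% of all probe sets. LHCB4.2 was 1.46-fold lower in Fe-1 than in Col-0 (log2 difference -0.55, SE 0.08, adjusted p = 0.00205), 1.76-fold lower in Ts-1 (-0.82, SE 0.11, adjusted p = 0.00489), 1.36-fold lower in Van-0 (-0.44, adjusted p = 0.0385) and 2.61-fold lower in Nw-0 (-1.38, SE 0.11, adjusted p = 0.00044). The Van-0 call was lost on leaving out any 1 of the Col-0 arrays or Fe-1 replicate 1 or 2 (adjusted p 0.0514 to 0.068). The differences of Bay-0 (-0.35, adjusted p = 0.078) and Ler-0 (-0.39, adjusted p = 0.0597) from Col-0 did not pass. In the order Col-0, Bay-0, Ler-0, Van-0, Fe-1, Ts-1, Nw-0, no neighbours differed at an adjusted p under 0.05, and the largest step was that from Ts-1 to Nw-0 (0.56, 95% interval 0.25 to 0.88, adjusted p = 0.0682). That order was set by the same values, so neighbours are the closest pairs by construction, and no conclusion is drawn from their tests. The probes were designed on the Col-0 sequence, and the part of mismatches to other accessions was not tested.

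The other copies of this antenna gene had narrower spans of accession means, 0.14 for LHCB4.1 and 0.49 for LHCB4.3 on the log2 scale. LHCB4.1 had log2 signals of 13.65, 13.70 and 13.67 in Col-0, 13.62, 13.57 and 13.50 in Fe-1, 13.70 in Ler-0, 13.67 in Van-0, 13.64 in Ts-1, 13.57 in Nw-0 and 13.56 in Bay-0. The 3 Fe-1 arrays lay below the 3 Col-0 arrays, but the span of accession means was the smallest of the 9 genes, and no difference from Col-0 was called. Within an array, the log2 signal of LHCB4.2 less that of LHCB4.1 was 0.44 lower in Fe-1 than in Col-0 (means -1.42 ± 0.11 and -0.99 ± 0.10, SD, n = 3 each), with all Fe-1 arrays below all Col-0 arrays. The exact two-sided permutation test gave p = 0.1, the smallest that 3 against 3 arrays allow. The pair was chosen after the values were seen, and LHCB4.2 alone already separated the Fe-1 from the Col-0 arrays. This p-value is therefore no separate support. The same quantity was -1.22 in Bay-0, -1.40 in Ler-0, -1.42 in Van-0, -1.78 in Ts-1 and -2.27 in Nw-0. Whether the array's response flattens at signals as strong as those of LHCB4.1 was not tested.

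LHCB4.3, the third copy, was highest in Ler-0. Its log2 signals were 11.35, 11.33 and 11.40 in Col-0, 11.19, 11.08 and 11.19 in Fe-1, 11.61 in Ler-0, 11.33 in Van-0, 11.24 in Ts-1, 11.18 in Bay-0 and 11.12 in Nw-0. The Ler-0 array lay above all 10 others and the Fe-1 arrays below all Col-0 arrays. Neither the Ler-0 difference from Col-0 (0.25, 95% interval 0.03 to 0.48, adjusted p = 0.136) nor the Fe-1 difference (-0.21, adjusted p = 0.0571) passed.

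**Figure D1:**
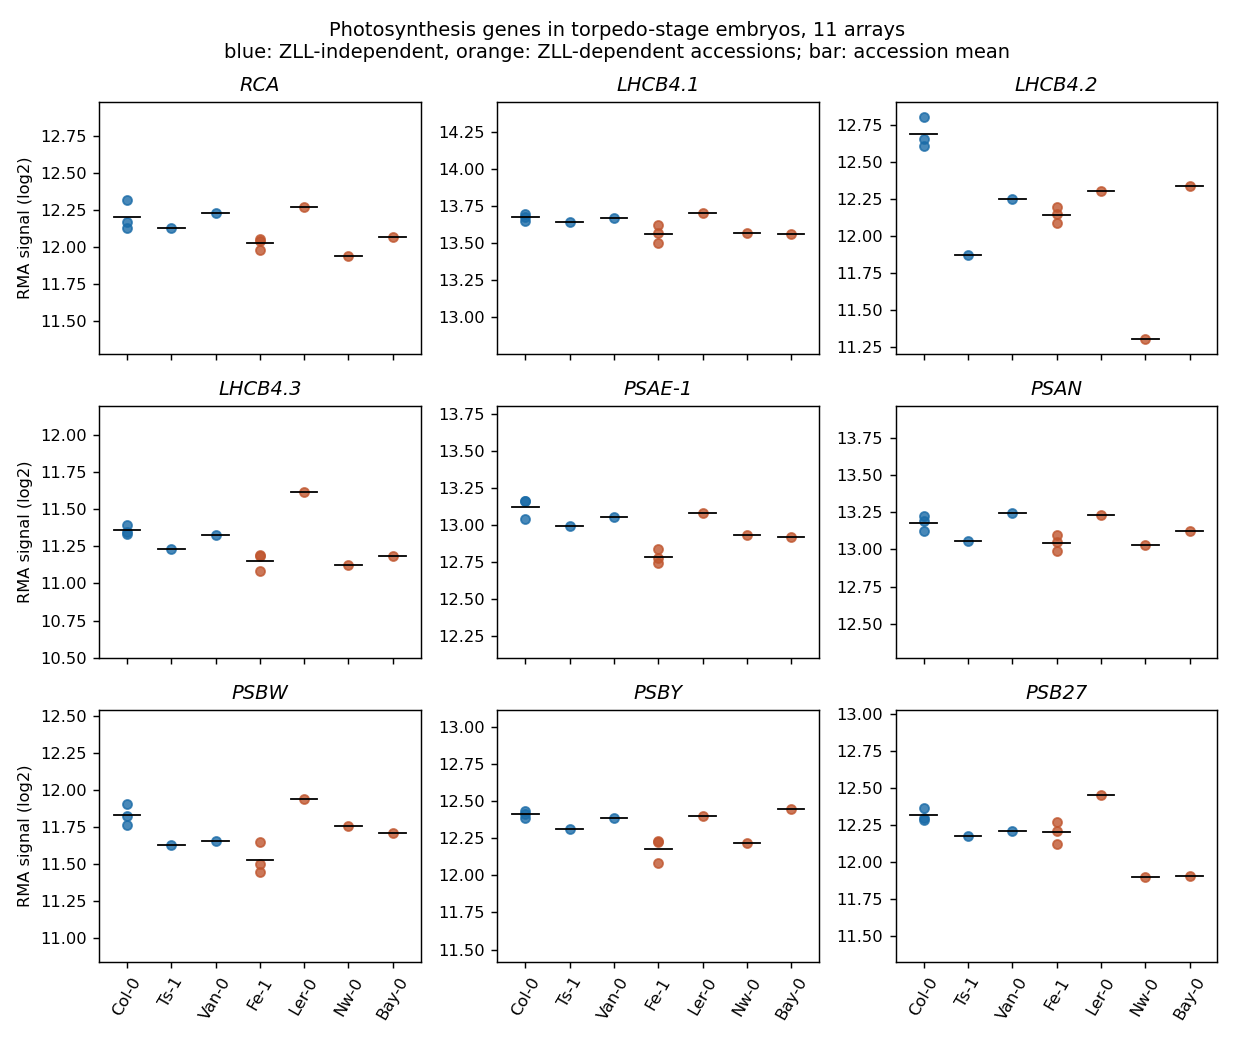
Deposited log2 signals (vertical axes, RMA, each panel spanning the same number of log2 units) of the 9 photosynthesis genes in each accession (horizontal axes); points are arrays, blue for ZLL-independent and orange for ZLL-dependent accessions, and bars are accession means. LHCB4.2 ran from 11.30 in Nw-0 to a mean of 12.69 in Col-0, while LHCB4.1 stayed between 13.50 and 13.70 on every array.

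Among the genes of photosystem II itself, the small subunits PSBW and PSBY were lower in Fe-1 than in Col-0. PSBW had log2 signals of 11.76, 11.82 and 11.91 in Col-0, 11.64, 11.50 and 11.44 in Fe-1, 11.93 in Ler-0, 11.76 in Nw-0, 11.71 in Bay-0, 11.66 in Van-0 and 11.63 in Ts-1. The Fe-1 arrays did not overlap the Col-0 arrays, and the difference of means was -0.30 on the log2 scale (SE 0.08, 1.23-fold lower, adjusted p = 0.028). PSBY had log2 signals of 12.42, 12.39 and 12.43 in Col-0, 12.23, 12.08 and 12.24 in Fe-1, 12.45 in Bay-0, 12.40 in Ler-0, 12.39 in Van-0, 12.31 in Ts-1 and 12.22 in Nw-0. Its Fe-1 arrays were again all below the Col-0 arrays, with a log2 difference of -0.23 (SE 0.07, 1.17-fold lower, adjusted p = 0.0463). Both calls are close to the threshold: PSBY lost its call on leaving out any 1 of the Col-0 or Fe-1 arrays, and PSBW on leaving out replicate 2 or replicate 3 of either accession.

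PSB27, a lumenal protein that helps photosystem II to assemble and to be repaired, showed another order of accessions. Its log2 signals were 12.29, 12.30 and 12.36 in Col-0, 12.12, 12.21 and 12.27 in Fe-1, 12.45 in Ler-0, 12.21 in Van-0, 12.18 in Ts-1 and 11.91 and 11.90 in Bay-0 and Nw-0. Bay-0 and Nw-0 lay below all other arrays, both at about 0.41 under the Col-0 mean. PSB27 was called lower in Bay-0 (-0.41, SE 0.10, 1.33-fold, adjusted p = 0.0339) and in Nw-0 (-0.41, SE 0.10, 1.33-fold, adjusted p = 0.0459). Both calls are close to the threshold and were lost on leaving out any 1 of the Col-0 arrays or Fe-1 replicate 2 (adjusted p 0.0606 to 0.088), and that in Nw-0 also without Fe-1 replicate 1 (adjusted p = 0.0686). Fe-1 lay -0.11 from Col-0 (95% interval -0.28 to 0.05, adjusted p = 0.264). No neighbours in the order Ler-0, Col-0, Van-0, Fe-1, Ts-1, Bay-0, Nw-0 differed at an adjusted p under 0.05. This order too was set by the values tested, so no conclusion is drawn from it.

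Of the photosystem I genes, PSAE-1 was lower in Fe-1 than in Col-0 and PSAN was not called in any accession. PSAE-1, a subunit on the stromal side where ferredoxin docks, had log2 signals of 13.04, 13.16 and 13.16 in Col-0, 12.84, 12.78 and 12.74 in Fe-1, 13.08 in Ler-0, 13.05 in Van-0, 12.99 in Ts-1, 12.93 in Nw-0 and 12.92 in Bay-0. The 3 Fe-1 arrays were the lowest of all 11, and PSAE-1 was 1.26-fold lower in Fe-1 than in Col-0 (-0.33, SE 0.07, adjusted p = 0.0109). This call was kept on leaving out any single array of the 2 accessions. PSAN, a lumenal subunit on the side where plastocyanin docks, had log2 signals of 13.12, 13.19 and 13.22 in Col-0, 13.05, 12.99 and 13.10 in Fe-1, 13.25 in Van-0, 13.23 in Ler-0, 13.12 in Bay-0, 13.06 in Ts-1 and 13.03 in Nw-0. Its accession means spanned 0.22 on the log2 scale, and none of its differences from Col-0 was called (Fe-1 -0.13, 95% interval -0.29 to 0.03, adjusted p = 0.189).

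RCA encodes Rubisco activase, which frees the carbon-fixing enzyme of bound sugar phosphates and so works in the Calvin cycle, not in a photosystem. Its log2 signals were 12.17, 12.13 and 12.32 in Col-0, 12.04, 11.99 and 12.06 in Fe-1, 12.27 in Ler-0, 12.23 in Van-0, 12.13 in Ts-1, 12.07 in Bay-0 and 11.94 in Nw-0. Ler-0, Van-0 and Ts-1 lay inside the range of the Col-0 arrays, and Fe-1, Bay-0 and Nw-0 below it. No difference of RCA from Col-0 was called (Fe-1 -0.18, adjusted p = 0.116, and Nw-0 -0.26, adjusted p = 0.185).

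For Fe-1 against Col-0, the 2 accessions with replicate arrays, 4 of the 9 genes were called lower (LHCB4.2, PSAE-1, PSBW and PSBY), none higher, and 5 did not pass. Over all probe sets 11.4% were called lower and 17.8% higher. All 9 differences were below 0, with a median of -0.21 on the log2 scale, where the median of all probe sets was 0.06. Among the 1696 probe sets with a mean log2 signal of at least 11.28, which is the range of these genes, the median difference was 0.02 and 10.3% were called lower. In all 9 genes the 3 Fe-1 arrays lay below the lowest Col-0 array, as in 17.5% of all probe sets. The differences were small, with PSAE-1 (1.26-fold) next after LHCB4.2 (1.46-fold).

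The arrays with high seed coat signal bear on this comparison. Fe-1 replicate 1, whose BAN signal of 5.07 was within the range of Col-0, was below the lowest Col-0 array in 9 of 9 genes, as in 28.5% of all probe sets. The median of the 9 genes relative to the Col-0 mean was -0.19 on the log2 scale in Fe-1 replicate 1, -0.28 in replicate 2 and -0.17 in replicate 3, and -0.03 in Van-0. Replicates 2 and 3 of Fe-1 and the Van-0 array had the highest BAN signals. With these 2 Fe-1 replicates and the Van-0 array left out, LHCB4.2 lay at -0.60 in Fe-1 and was just inside the threshold (adjusted p = 0.0482), whereas PSAE-1 (-0.28, adjusted p = 0.176), PSBW (-0.19, adjusted p = 0.35) and PSBY (-0.19, adjusted p = 0.291) did not pass. That fit has 1 Fe-1 array, which is assumed to vary like the 3 Col-0 arrays, the only source of the spread between arrays that is left, and calls over all probe sets fell from 6655 to 2031. The part of seed coat RNA in the values of replicates 2 and 3 was not tested further.

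**Figure D2:**
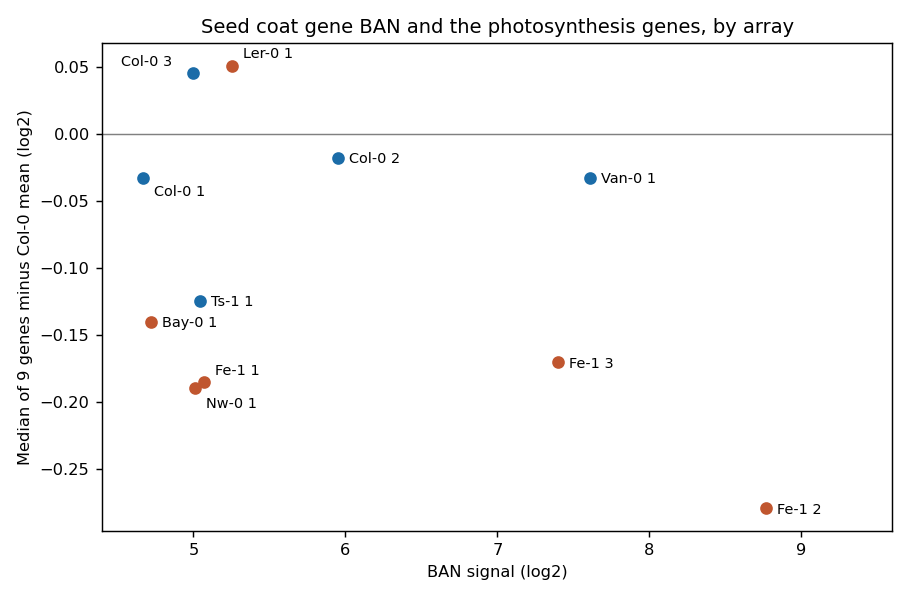
Median over the 9 photosynthesis genes of the log2 difference from the Col-0 mean (vertical axis) against the log2 signal of the seed coat gene BAN (horizontal axis), one point per array, blue for ZLL-independent and orange for ZLL-dependent accessions. Fe-1 replicate 1 (5.07, -0.19) sits beside Nw-0 (5.01, -0.19) at low BAN, and Van-0 (7.61, -0.03) has high BAN with a median near that of Col-0.

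The single-array accessions fell into different places relative to the same Col-0 arrays, which all these comparisons share. Nw-0 was below the lowest Col-0 array in 9 of 9 genes (24.6% of all probe sets were), with a median of -0.19 on the log2 scale, and LHCB4.2 and PSB27 were called lower where 4.08% of all probe sets were. Ts-1 was below the lowest Col-0 array in 8 genes (24.1% of all probe sets), with a median of -0.12, and LHCB4.2 alone was called lower (4.01% of all probe sets). Bay-0 was below in 7 genes (27.6% of all probe sets), with a median of -0.14, and PSB27 alone was called lower (5.86% of all probe sets). Van-0 was below in 4 genes (25.9% of all probe sets), with a median of -0.03, and LHCB4.2 alone was called lower (5.48% of all probe sets).

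Ler-0 was the highest accession for 5 of the 9 genes (RCA, LHCB4.1, LHCB4.3, PSBW and PSB27). It was above the highest Col-0 array in 5 genes (LHCB4.1, LHCB4.3, PSAN, PSBW and PSB27), where 39.9% of all probe sets were, and its median difference from Col-0 was 0.05 on the log2 scale. None of the 9 genes was called in limma between Ler-0 and Col-0, against 13.8% of all probe sets called in either direction. The largest differences of Ler-0 from Col-0 were those of LHCB4.2 (-0.39) and LHCB4.3 (0.25). Ler-0 lay above all 3 Fe-1 arrays in 9 of 9 genes, as in 30.7% of all probe sets. That comparison was chosen after the values were seen, and both accessions are ZLL-dependent. Nw-0 was the lowest accession for 5 genes, Fe-1 for 3 and Bay-0 for LHCB4.1. In these rankings single arrays stand beside means of 3 arrays for Col-0 and Fe-1, and a single array reaches an extreme more readily. The shares of all probe sets with each accession highest or lowest are not given here, so these counts are not read as a result.

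**Figure D3:**
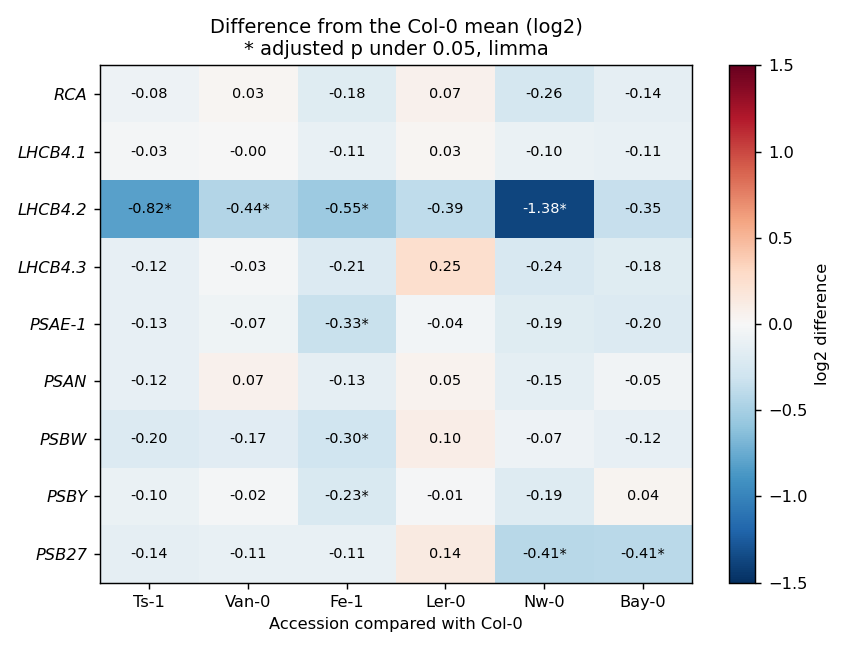
Log2 difference from the Col-0 mean for the 9 photosynthesis genes (vertical axis, by gene) in the 6 other accessions (horizontal axis), with blue below and red above Col-0; asterisks mark an adjusted p under 0.05 in limma. LHCB4.2 is below 0 in all 6 columns, from -0.35 in Bay-0 to -1.38 in Nw-0. The Ler-0 column holds 6 of 9 values above 0 and 3 below, where 42.8% of all probe sets were below 0.

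Asked whether a gene differed among the 7 accessions at all, limma's moderated F test called LHCB4.2 (adjusted p = 0.00141) and PSB27 (adjusted p = 0.0424), 2 of 9 genes, where 31% of all probe sets were called. The call of PSB27 was lost on leaving out most single arrays, with renewed quantile normalisation, with the ordinary F statistic and without the arrays of highest BAN, whereas that of LHCB4.2 was lost only with a 3-fold limit. LHCB4.3 (adjusted p = 0.061) and PSAE-1 (adjusted p = 0.087) came next, and the other 5 genes had adjusted p between 0.129 and 0.661. The median span of accession means was 0.33 on the log2 scale over the 9 genes and 0.48 over all probe sets. The spans of RCA (0.33), PSAE-1 (0.33), LHCB4.3 (0.49), PSBW (0.41), PSBY (0.27) and PSB27 (0.55) lay between that of PSAN and that of LHCB4.2.

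The study's own grouping compares the 6 arrays of ZLL-dependent with the 5 arrays of ZLL-independent accessions. All 9 genes had lower means in the ZLL-dependent group, as did 41.8% of all probe sets. The median difference was -0.12 on the log2 scale against 0.03 over all probe sets. Fe-1 and Col-0 give 3 arrays each to these groups, so the shared direction partly repeats Fe-1 against Col-0. The groups overlapped in every gene, and none was called in limma (0.448% of all probe sets were). At an unadjusted p under 0.05 there was 1 of the 9 genes, PSAE-1, and the share of all probe sets at that level is not given here. The mean of PSAE-1 was 12.88 ± 0.12 in the ZLL-dependent (SD, n = 6) and 13.08 ± 0.08 in the ZLL-independent arrays (n = 5), a difference of -0.20 (SE 0.07, 95% interval -0.35 to -0.05, adjusted p = 0.178). LHCB4.2 had the largest difference (-0.37, 95% interval -0.83 to 0.09, adjusted p = 0.382), with means of 12.06 ± 0.38 and 12.43 ± 0.38. Its lowest array, Nw-0, is ZLL-dependent and its second lowest, Ts-1, is ZLL-independent. Arrays of an accession are not independent here, so these p-values are too small. With 1 mean per accession, 4 against 3, and with accession as a random block, limma again called none of the 9 genes. With 1 mean per accession PSBW lay at 0.03 and LHCB4.3 at -0.04 on the log2 scale, and the remaining genes stayed below 0.

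Other genes of photosynthesis were counted in lists written with earlier results of these data known, and the annotation names only a part of each. In chlorophyll synthesis, 8 of 32 names were measured. HEMB1, which encodes an early enzyme that joins 2 molecules of aminolevulinic acid, was called lower in Fe-1 (-0.23, SE 0.07, adjusted p = 0.0413), with log2 signals of 12.65, 12.60 and 12.63 in Col-0 and 12.44, 12.32 and 12.44 in Fe-1. The other 7 were not called, so that 1 of 8 was lower where 11.4% of all probe sets were, and 4 of the 8 differences were below 0. PORB, which reduces protochlorophyllide in the light, lay at -0.38 (adjusted p = 0.084), and CHLI2, a subunit of magnesium chelatase, at 0.37 (adjusted p = 0.0573). The median over the 8 in Fe-1 was -0.05 on the log2 scale. HEMB1 was not lower in Fe-1 alone. In the single-array accessions it lay at -0.40 from Col-0 in both Bay-0 and Ler-0, -0.27 in Van-0, -0.08 in Nw-0 and 0.04 in Ts-1. Which genes of these lists were called in the single-array accessions is not given here.

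Of 36 names for photosystem assembly and protection, 4 were measured and 1 was called lower in Fe-1, too few to set against the 11.4% of all probe sets. LPA2, which is needed to build photosystem II, had log2 signals of 9.36, 9.29 and 9.30 in Col-0 and 9.12, 9.03 and 8.98 in Fe-1 (-0.27, SE 0.07, adjusted p = 0.0245), without overlap. In Fe-1, LPA1 (-0.08), HCF101 (0.20) and LIL3:1 (0.10) were not called. Relative to Col-0, LPA2 was lower still in the single Nw-0 array (-0.46). It lay between -0.02 and -0.19 in the other single-array accessions. Of 24 Calvin cycle names, PRK, phosphoribulokinase (-0.35, adjusted p = 0.0513), and SBPASE, sedoheptulose bisphosphatase (-0.19, adjusted p = 0.146), were measured, and neither was called.

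Of 29 names for electron transport and ATP synthase, 5 were measured, and 3 of the 5 differences between Fe-1 and Col-0 were below 0. None of the 5 was called, where 29.3% of all probe sets were called in either direction. NdhL, a subunit of the chloroplast NADH dehydrogenase-like complex, varied most among the accessions (moderated F, adjusted p = 0.00082). Its log2 signal was 8.23 in Van-0 and 5.50 in Nw-0, against 6.68, 6.72 and 6.96 in Col-0. Nw-0 was thus the lowest array and Van-0 the highest. PGRL1B, which takes part in cyclic electron flow, also passed the F test (adjusted p = 0.0176), with its lowest log2 signal of 8.68 in Nw-0. These were 2 of 5 genes, where 31% of all probe sets passed. HYH, a light-signalling transcription factor and the only 1 of 34 regulators measured, lay at 0.80 in Fe-1 (adjusted p = 0.138). In the comparison by ZLL dependency no gene of these lists was called.

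**Figure D4:**
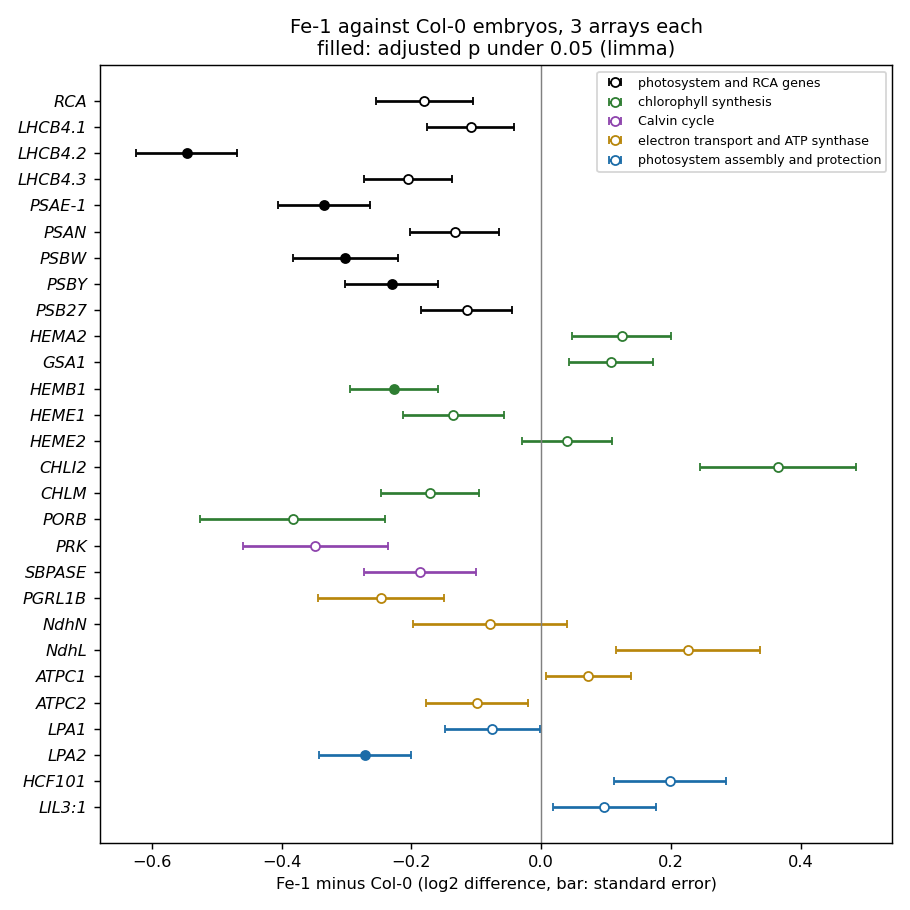
Log2 difference between the Fe-1 and Col-0 means (horizontal axis, bars are standard errors from limma, 3 arrays each) for the 9 photosynthesis genes and the measured genes of 4 further lists (vertical axis, by gene, coloured by list); filled points have an adjusted p under 0.05. The 9 genes in black all lie below 0, from -0.11 to -0.55, while those of chlorophyll synthesis lie on both sides.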

How the data were processed

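Total RNA of torpedo-stage embryos was hybridised to 11 Affymetrix ATH1 arrays. Per the methods and the labels, RMA was run by the authors (background correction, quantile normalisation, a summary per probe set), and the deposited values are log2 signals. The RMA version is not given in the sources used here. There is no read depth, and precision is limited by the number of arrays. Quantile normalisation in RMA acts before the summary per probe set, and values are relative to the other probe sets of an array. The deposited values do not share one distribution exactly: array medians ran from 7.57 to 7.71 and lower quartiles from 4.92 to 5.04 on the log2 scale.

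Chip controls (64) were removed and no filter on low values was set. Genes were named from the platform annotation (1 gene for 13513 probe sets, several for 503, none listed for 8730), and 13436 probe sets were matched to a TAIR10.1 gene table for loci. The deposited values were fitted with limma 3.58.1 under R 4.3.3 (lmFit, then eBayes), with 1 mean per accession (4 residual degrees of freedom) or with 2 groups by ZLL dependency. The methods name no test. P-values were adjusted by Benjamini-Hochberg over all 22746 probe sets. Differences are the first-named group minus the second, and intervals are at 95%. The fits were tested on simulated data. Every member is named with its array values, and from each list up to 3 called genes with the lowest adjusted p, plus others chosen after their values were seen. Of the list names, 2 hits were left out because the symbol belongs to another gene. The members and lists were chosen with earlier results of these data known.

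Alternatives were the methods' 3-fold limit, centring each array on its median, a second quantile normalisation, leaving out the dimmest 25% of probe sets, the cross-hybridising probe sets, each array in turn or the arrays with the most seed coat signal, an intensity trend with a robust fit, ordinary statistics, the replicate number as a block, and accession means or a random accession block. Figures were drawn with matplotlib 3.10.9. Sequences and coordinates were not used here.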

Additional observations from a re-analysis of the deposited data

Results flagged for a closer look

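Each of the 9 genes was checked for an array far from the rest, in the ZLL-dependent (6 arrays) and ZLL-independent group (5 arrays). By Dixon's criterion, 3 of these 18 sets of values held such an array. Its rate by chance, about 1 in 20, holds for independent values of a single population. These groups mix replicates of Fe-1 or Col-0 with single arrays of other accessions, so that rate does not apply. The share of all probe sets flagged in this way is not given here. All 3 flagged values were single arrays of a ZLL-dependent accession. LHCB4.2 in Nw-0 was low at 11.30 on the log2 scale, with the next array at 12.08, and the gap took up 0.754 of the range. LHCB4.3 in Ler-0 was high at 11.61, with the next array at 11.19, and RCA in Ler-0 was high at 12.27, with the next at 12.07 (0.787 and 0.627 of the range). Since the groups hold different accessions, and Nw-0 and Ler-0 have 1 array each, a difference of the accession and one of the array cannot be told apart.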

How the results depend on the processing

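With 3 arrays at most per accession, calls of small differences changed with the arrays kept and with the variance model. Of 341 values of single genes under the alternatives, 301 kept their direction and side of the threshold, 31 lost and 8 gained a call. The 1 other turned its sign: PSBW by ZLL dependency was 0.0263 with 1 mean per accession. Most of these values are of differences that the main fit did not call, which cannot lose a call. Apart from the 3-fold limit, PSBY in Fe-1 lost its call in 9 settings and kept it in 5. For PSBW in Fe-1 these were 7 and 7, for PSAE-1 1 and 13, and for LHCB4.2 0 and 14. LHCB4.2 in Van-0 and PSB27 in Nw-0 had 5 and 2, PSB27 in Bay-0 4 and 3, and LHCB4.2 in Nw-0 and Ts-1 0 and 7. At least 3-fold left 0 genes called in Van-0, Ts-1, Nw-0, Bay-0 and Fe-1 against Col-0 and 0 among 7 accessions. The intensity trend with a robust fit called 7 genes in Fe-1 and 6 among accessions. The shares of all probe sets called with this fit, renewed quantile normalisation, median centring or without single arrays are not given here. Counts under those settings are thus not read as a result about the 9 genes. Among accessions, renewed quantile normalisation, the ordinary F statistic and leaving out the arrays with the most seed coat signal each left 1, LHCB4.2, and that last setting left 1 in Fe-1, LHCB4.2. Median centring called 6 in Fe-1, 2 in Bay-0 and 1 in Ler-0. It moved all 9 differences of Fe-1 from Col-0 further below 0, that of RCA from -0.18 to -0.28. Same-numbered Col-0 and Fe-1 arrays deviated with correlations of 0.23, 0.04 and 0.11, so the numbers are not taken as pairs. The replicate block called 2 of the 9 genes in Fe-1, LHCB4.2 and PSAE-1, and 6600 of all probe sets against 6655. Leaving out single arrays gave 2 to 3 called genes in Fe-1, 1 to 3 among accessions, 0 to 1 in Bay-0, 1 to 2 in Nw-0 and 0 to 1 in Van-0. PSB27 lost its call among accessions without any 1 of Col-0 replicates 1 to 3, Fe-1 replicate 1 or 2, Ler-0, Nw-0 or Bay-0. By ZLL dependency 0 of the 9 genes were called under every alternative run, while over all probe sets 102 calls became 3 with 1 mean per accession and 15 with a random accession block. The ordinary t statistic called 3921 of all probe sets in Fe-1 in place of 6655. Some settings hold fewer arrays, and the cause of these changes was not tested.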
